A study of Mus musculus with 19 samples.

Results

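The melanocytic cells of the skin tumour labelled KO were 8253 of the 10753 cells of that matrix that passed the depth limits, a share of 76.8% (exact 95% binomial interval 75.9 to 77.5), and 8253 of 39658 such cells over the 4 tumour matrices of the series. A cell barcode counted as melanocytic when it held at least 2000 unique molecular identifiers (UMIs, each one tagged RNA molecule), at least 200 genes, under 20% mitochondrial UMIs, at least 7 of 11 melanocyte genes (Mlana, Pmel, Tyr, Tyrp1, Dct, Slc45a2, Slc24a5, Oca2, Gpr143, Mitf and Sox10) and at most 1 of 5 genes of other lineages (Ptprc, C1qb, Csf3r, Pecam1 and Col1a2). The cells were thus chosen by measured values, the UMIs of these 16 genes, and the levels of those genes are given as a description. Of the cells past the depth limits, 1746 (16.2%) had the melanocyte genes but also 2 or more genes of other lineages, and 754 (7.01%) had under 7 melanocyte genes. Just inside the melanocyte limit, the 138 cells with exactly 7 of the genes held Dct at 4960 CPM (UMIs of the gene per 1e+06 UMIs) and the fibroblast collagen Col1a1 at 5997. Just outside it, the 102 cells with exactly 6 held Dct at 2960 and Col1a1 at 8492 CPM. Most melanocytic cells lay far from that edge, since 5054 of them (61.2%) held all 11 genes.

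Tumours were grown from Melan-a, a mouse melanocyte line that divides without limit, carrying either a CRISPR knockout of Bap1 (KO) or the unedited gene (WT). Cells were injected under the skin or into the eye of syngeneic mice that received no treatment, and tumours were taken at the endpoint. The 4 matrices, KO skin, WT skin, KO ocular and WT ocular, stand under 1 sample of the series, so there was 1 library of each kind. Genotype and site are known from the matrix names alone, and the labels do not say which of the 4 knockout clones was injected. The sources used here give no age, sex or strain of the mice. With 1 library of each kind no difference between matrices could be tested. Intervals below cover counting error within a library only, and a fold between 2 matrices compares those libraries, not the genotypes.

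Melanocytes make pigment inside melanosomes, organelles related to lysosomes. The transcription factors Sox10 and Mitf drive the genes of the pathway: tyrosinase (Tyr), which carries out the rate-limiting step of melanin synthesis, the related enzymes Tyrp1 and Dct, the amyloid scaffold protein Pmel, and the transporters Slc45a2, Slc24a5 and Oca2 that set the ion balance of the organelle. Bap1 encodes a nuclear enzyme that removes ubiquitin from histone H2A, opposing Polycomb repression, and is a tumour suppressor often lost in melanoma of the eye. Mrgprb1 and Mrgprx2 belong to the Mas-related family of G protein-coupled receptors, best known from sensory neurons and mast cells.

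The upstream sequences of 7 genes are shown because the results turn on 3 groups of genes, pigment genes, genes of low oxygen, and the receptor pair. Each is the 250 bases before the RefSeq gene start (GRCm38.p6), read 5′ to 3′ on the strand of the gene. In the pigment genes the capitals mark CATGTG or its reverse complement CACATG, the core of the M-box that Mitf is known to bind. Tyr lies on the minus strand at chr7:87493513-87493762, Tyrp1 on the plus strand at chr4:80833963-80834212, and Slc24a5 on the plus strand at chr2:125067877-125068126.
Tyr: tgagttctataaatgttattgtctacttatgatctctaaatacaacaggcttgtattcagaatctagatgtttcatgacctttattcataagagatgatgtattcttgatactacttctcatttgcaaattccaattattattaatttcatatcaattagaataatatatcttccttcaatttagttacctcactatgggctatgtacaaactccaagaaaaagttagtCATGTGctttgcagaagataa
Tyrp1: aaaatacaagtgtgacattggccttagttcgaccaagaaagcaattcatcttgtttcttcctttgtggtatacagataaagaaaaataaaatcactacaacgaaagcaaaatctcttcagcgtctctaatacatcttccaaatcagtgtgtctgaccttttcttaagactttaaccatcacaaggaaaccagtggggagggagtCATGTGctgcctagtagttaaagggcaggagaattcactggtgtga
Slc24a5: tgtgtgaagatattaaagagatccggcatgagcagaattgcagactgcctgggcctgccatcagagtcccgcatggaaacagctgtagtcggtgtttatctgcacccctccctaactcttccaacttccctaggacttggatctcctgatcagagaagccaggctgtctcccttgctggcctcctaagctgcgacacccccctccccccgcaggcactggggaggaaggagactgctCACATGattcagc
The motif began 21 bases before the start in Tyr, 46 in Tyrp1 and 13 in Slc24a5. Counted on both strands, it stood in 5 of the 6 rule genes that the sequence table holds (Tyr, Tyrp1, Dct, Slc24a5 and Oca2, but not Mitf), against 3742 of 27025 genes in all (13.8%). Among 26 other pigment genes in the table, 5 held it.

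In the low-oxygen genes the capitals mark ACGTG, the core of the hypoxia response element, with CACGT counted as its reverse complement. Egln1, an oxygen-sensing prolyl hydroxylase, lies on the minus strand at chr8:124949255-124949504, and Slc2a1, a glucose transporter, on the plus strand at chr4:119108495-119108744.
Egln1: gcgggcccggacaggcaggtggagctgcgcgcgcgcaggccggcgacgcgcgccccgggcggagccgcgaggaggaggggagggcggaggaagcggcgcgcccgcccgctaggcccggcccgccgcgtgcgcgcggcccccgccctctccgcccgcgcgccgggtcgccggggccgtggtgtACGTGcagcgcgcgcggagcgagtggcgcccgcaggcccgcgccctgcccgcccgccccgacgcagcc
Slc2a1: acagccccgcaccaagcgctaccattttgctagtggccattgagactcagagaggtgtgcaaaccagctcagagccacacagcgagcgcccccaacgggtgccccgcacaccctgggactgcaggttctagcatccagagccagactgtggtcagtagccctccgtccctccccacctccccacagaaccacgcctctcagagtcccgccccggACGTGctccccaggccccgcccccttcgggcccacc
The motif stood in 14 of 23 low-oxygen genes in the table, against 18.5% of all genes. ACGTG overlaps CACGTG, a site of Mitf relatives, which stood in 8 of 26 other pigment genes (30.8%) and 6.86% of all genes.

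The windows of Mrgprb1 (minus strand, chr7:48456343-48456592) and Mrgprx2 (minus strand, chr7:48499271-48499520) held none of these motifs, which says only that the letters are not in these windows.
Mrgprb1: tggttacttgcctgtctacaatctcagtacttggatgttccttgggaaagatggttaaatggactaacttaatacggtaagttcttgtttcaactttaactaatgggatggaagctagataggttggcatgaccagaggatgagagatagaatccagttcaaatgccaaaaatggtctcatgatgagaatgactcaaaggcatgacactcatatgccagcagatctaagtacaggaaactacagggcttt
Mrgprx2: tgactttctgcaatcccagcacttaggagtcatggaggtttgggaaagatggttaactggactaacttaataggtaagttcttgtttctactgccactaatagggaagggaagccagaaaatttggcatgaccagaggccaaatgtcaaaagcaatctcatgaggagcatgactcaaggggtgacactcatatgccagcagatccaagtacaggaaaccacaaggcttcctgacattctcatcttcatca
A global alignment of the pair had 197 identical bases in 280 columns (70.4%), against 52.7% to 55.1% for 5 other pairs that set Mrgprb1 or Mrgprx2 beside Mrgprb2, Tyr or Tyrp1. The 2 gene starts lie 42.9 kb apart on chromosome 7 with 0 annotated genes between them.

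The cells labelled KO skin held between 2000 and 119663 UMIs, with a median of 4720 and a median of 2683 genes. The median depth of the melanocytic cells was 6071 UMIs in WT skin, 9878 in KO ocular and 5547 in WT ocular. The WT ocular matrix came from another workflow, with another gene list and Cell Ranger release, so levels set beside it differ in method as well as in tumour. Bap1, the targeted gene, stood at 48.1 CPM in the cells labelled KO skin, 33.5 in KO ocular and 5.66 in WT ocular, against 41.1 in WT skin. The log2 ratio of KO skin over WT skin was 0.22 (counting interval 0.14 to 0.31), so Bap1 RNA was not lower under the KO label, and the sources used here do not say where the measured part of the transcript lies relative to the edit. In bulk RNA-seq of the cultured lines, by contrast, the deposited transformed log2 value of Bap1 was 9.07 to 10.4 over the 8 libraries of the knockout clones, against 12.2 and 12.2 in the 2 parental libraries. The label KO was therefore not borne out by Bap1 RNA in the tumour cells, and every direction below is one between libraries as labelled. No full barcode was shared between matrices, but 2457 of the 8253 cells shared their first 16 bases with a barcode of another matrix, 672 of them with a melanocytic cell of WT skin.

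The levels of the rule genes are set beside those in host cells of the same tumour as a description, since those host cells were in turn chosen for holding few of them. Dct was at 17391 CPM in the melanocytic cells, against 882 in 39 cells that held both Ptprc and C1qb and at most 3 melanocyte genes. Pmel stood at 8116 against 367, Tyrp1 at 5575 against 207, Mlana at 1569 against 5.92 and Tyr at 990 against 11.8 in the same order. Oca2 (759), Gpr143 (490) and Sox10 (957) were at 0 UMIs in those 39 host cells. Among 28 pigment genes outside the rule, Trpm1 stood at 1540, Mlph at 1100 and Rab38 at 675 in the melanocytic cells. The host cells held these at 88.8, 23.7 and 17.8 in the same order. The 28 genes together did not set the cells apart, with a sum of 21243 in the melanocytic cells and 25721 in the 39 host cells. Mrgprb1, the only marker of the label outside the rule, stood at 474 in KO skin and at 0.749 in WT skin cells chosen in the same way, so it is no marker of melanocytic cells at large. A wider set of 915 cells with both Ptprc and C1qb held Dct at 8604, so many of those barcodes carried both kinds of RNA.

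Markers of other cell types were low but present, and no doublet caller was run. The 14 macrophage genes summed to 505 CPM in the cells labelled KO skin, 22103 in the 39 host cells and 970 in WT skin, and 62.6% of the KO skin cells held none of them after each cell was thinned to 2000 UMIs. The 8 neutrophil genes summed to 72.8 against 287 in WT skin, the 8 fibroblast genes to 482 against 1027, the 15 lymphocyte genes to 17.7 against 12.8, the 8 endothelial genes to 67.0 against 66.8 and the 8 keratinocyte genes to 7.86 against 47.4. Cd3e and Krt14, defining genes of T cells and keratinocytes, were at 0.273 and 0.0513. The mast cell proteases Cpa3 and Tpsb2 were at 0.0171 and 0.0683, so of the 9 mast cell genes only Kit, which melanocytes also use, stood at 10 or more. Ddx3y, a Y-linked gene, was at 2.03 in the melanocytic cells and 88.8 in the 39 host cells.

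**Figure D1:**
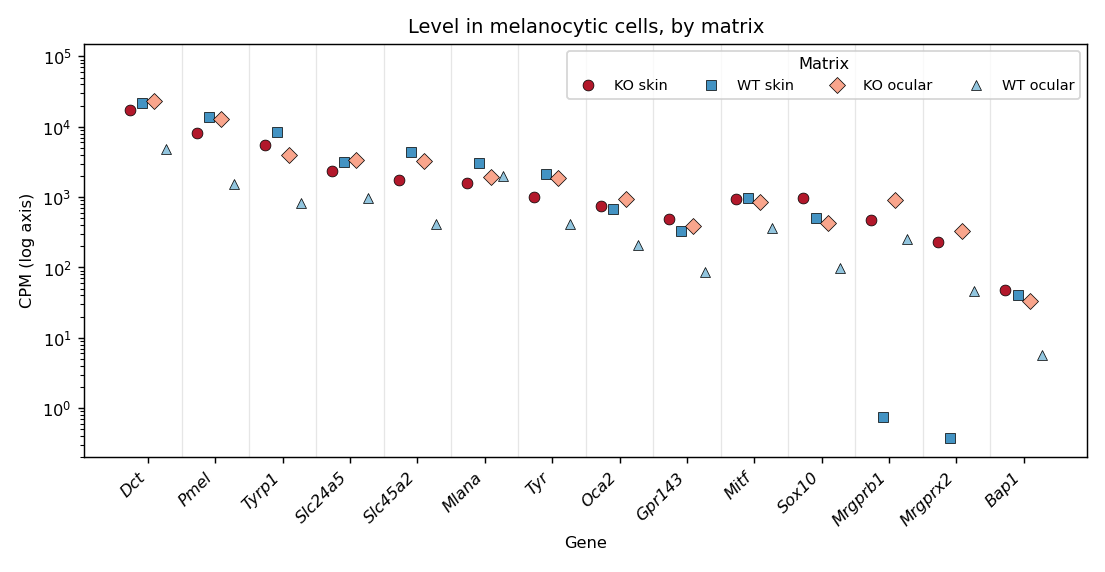
Level of the 11 rule genes, Mrgprb1, Mrgprx2 and Bap1 in the melanocytic cells of each matrix, in CPM on a log axis, 1 library and so 1 point a matrix. The KO skin points for Mrgprb1 and Mrgprx2 lie at 474 and 233, those of WT skin at 0.749 and 0.375, while Bap1 differs little between KO skin (48.1) and WT skin (41.1).

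Levels of pigment genes in these cells are given as a description. The 11 rule genes, on which the cells were chosen, summed to 40929 CPM and 28 further pigment genes to 21243. The second sum does not set these cells apart, since the host cells with few melanocyte genes held the same 28 genes at 25721. Levels are not per transcript length, so their order between genes is not an order of transcript numbers. Among the further genes, Gpnmb, a melanosome glycoprotein that macrophages also make, stood at 10869, and Apoe, which macrophages make too, at 873. The cation channel Trpm1, whose gene hosts a Mitf-driven microRNA, stood at 1540, the melanosome motor linker Mlph at 1100, the motor Myo5a at 1056 and Rab38, a guide of enzymes to the melanosome, at 675. Ptgds, a prostaglandin synthase, was at 15802 and Selenop, a selenium carrier, at 8281. Every one of the 28 genes passed 10 CPM in KO skin or WT skin.

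Lineage regulators were present at lower levels. Sox10 stood at 957, Mitf at 950, Pax3, an early melanoblast factor, at 696 and Tfap2a, a partner of Mitf, at 382 CPM. The receptor Kit was at 364, the survival gene Bcl2, a Mitf target, at 335, and Mc1r, the receptor that switches eumelanin on, at 125. Lef1 and the neural crest receptor Ngfr were at 0.205 and 0.120.

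Mrgprb1 set the cells labelled KO skin apart from those labelled WT skin more than any other gene with 50 CPM. Its 27731 UMIs gave 474 CPM (counting interval 468 to 479) in KO skin, against 36 UMIs and 0.749 CPM in WT skin, a ratio of 632 (457 to 903). Mrgprx2, the neighbouring gene, had 13664 UMIs and 233 CPM in KO skin, against 18 UMIs and 0.375 CPM in WT skin, a ratio of 623 (394 to 1052). KO ocular cells held Mrgprb1 at 920 and Mrgprx2 at 329, and cells of the matrix labelled WT ocular held them at 256 and 46.0. The KO skin and WT skin values thus lay apart by over 2 orders of magnitude, and both ocular matrices lay on the side of KO skin.

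The receptor signal was spread over the cells. With each cell thinned to 2000 UMIs, 53.9% of KO skin melanocytic cells held at least 1 Mrgprb1 UMI (52.8 to 55.0), against 0.208% in WT skin, 67.8% in KO ocular and 36.2% in WT ocular. Without thinning, the share was 74.95% in KO skin at a median depth of 4720 UMIs, against 0.568% in WT skin at 6071. None of the 39 host cells, chosen for holding few melanocyte genes, held a Mrgprb1 UMI. That allows a share of cells with a UMI of up to 7.69% (3 of 39) at their median depth of 3420 UMIs. In KO skin 27.6% of cells held 1 Mrgprb1 UMI per 2000, 13.8% held 2, 7.14% held 3 and the highest cell held 13. The 1212 highest cells held 50% of all Mrgprb1 UMIs, and the variance over cells was 1.65 times the mean, where 1 is what sampling alone gives. The 915 barcodes with both Ptprc and C1qb held 26.7 Mrgprb1 UMIs per 1000 Dct UMIs, against 27.2 in the melanocytic cells. Mrgprx2 stood at 10.6 per 1000 Dct UMIs in those barcodes against 13.4 in the melanocytic cells. The source of the receptor RNA in those barcodes was not tested. Mrgprx2 was found in 43.6% of the cells with Mrgprb1 and in 20.05% of those without it, and their levels per cell had a Spearman rho of 0.30 over 8253 cells that share a library. The other members of the family were low: 16 of the 19 genes whose symbol begins with Mrgpr were under 1 CPM, among them Mrgprb2, the mast cell receptor (0.359), Mrgprb3 (0.889) and Mrgprb8 (0.0342), which all lie on the same stretch of chromosome 7. Mrgpre, at 8.58 in KO skin and 12.9 in WT skin, was the remaining one.

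**Figure D2:**
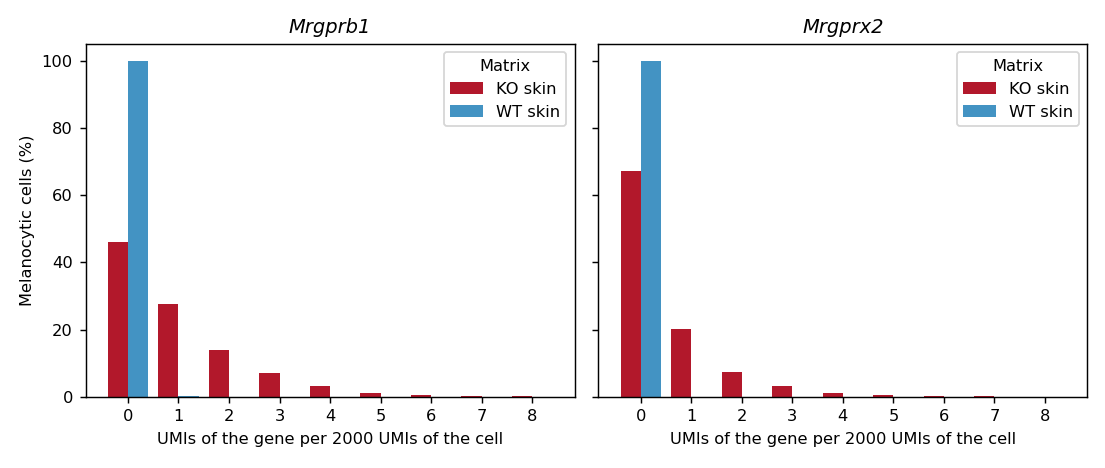
Share of melanocytic cells (y axis, percent) by the number of Mrgprb1 (left) and Mrgprx2 (right) UMIs per 2000 UMIs of the cell (x axis), in KO skin and WT skin. In KO skin 46.1% of cells are at 0 for Mrgprb1 and 67.3% for Mrgprx2, against 99.8% and 99.9% in WT skin.

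Across the transcriptome, genes were called when their level differed at least 2-fold between the melanocytic cells of KO skin and WT skin and reached 10 CPM in the higher of the 2. Of 9673 genes, 1298 were higher in KO skin (13.4%) and 904 lower (9.35%), and the median gene had a log2 ratio of 0.17. With levels scaled so that the median ratio was 1, the split was 939 higher and 1173 lower, so list medians below are read against 0.17 and calls lost or gained by that scaling are named. Several measures of the libraries moved with these ratios. The 13 mitochondrially encoded genes summed to 3761 CPM in KO skin, against 29605 in WT skin, and all 13 were lower. A list of 12 genes with transcripts that are often held in the nucleus, chosen after its values were seen, summed to 6615 in KO skin, against 2582 in WT skin, with 9 genes higher (6 after scaling) and a median of 1.33. Median depth and the macrophage, neutrophil and fibroblast sums also differed, as given above. The part of these differences in the results on other genes was not tested.

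**Figure D3:**
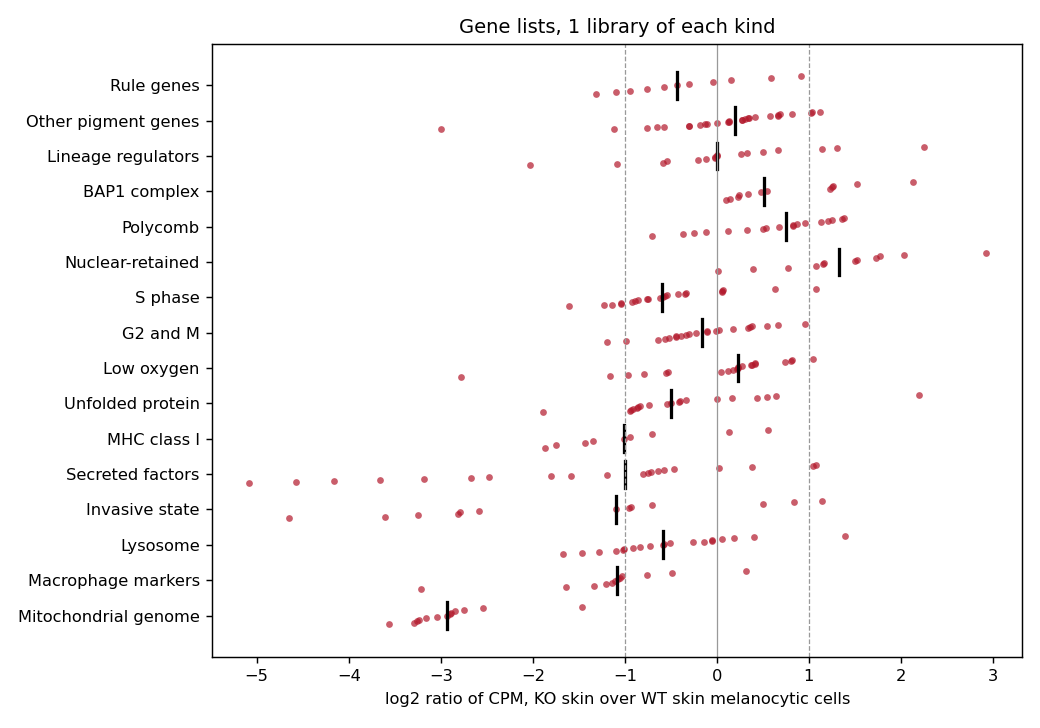
log2 ratio of KO skin over WT skin melanocytic cells for the genes of 16 lists with at least 10 CPM in either matrix. Each point is a gene, each bar the median of its list, and dashed lines mark a 2-fold difference. The mitochondrial genes lie at a median of -2.94 and the nuclear-retained genes at 1.33, with all genes at 0.17.

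After the receptor pair, the genes furthest above WT skin, by ratio among genes with at least 50 CPM, were ion channels and genes of varied function. The sodium-activated potassium channel Kcnt1 stood at 59.4 in KO skin against 0.333 in WT skin, a ratio of 179 (110 to 313). The endolysosomal channel Mcoln3 stood at 125 against 2.06 and the calcium buffer Pvalb at 137 against 3.70. Sez6l (55.9 against 1.06), the amine oxidase Aoc1 (83.1 against 2.89), the clock gene Per2 (68.2 against 2.81), the G protein regulator Rgs11 (90.7 against 5.62), the protease Napsa (77.2 against 5.52) and the thyroxine carrier Ttr (757 against 55.1) were also among the 12 furthest. Among genes with higher levels, Adgb stood at 1818 against 331, the sodium pump subunit Atp1b1 at 1718 against 213, and Cited1, a transcriptional cofactor, at 1494 against 487.

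The genes furthest below WT skin were led by Cpne4, at 0.308 CPM in KO skin against 55.6, and by the complement gene C4b, at 21.2 against 1782. The matrix protease Mmp10 stood at 1.01 against 68.4, the glial receptor Gpr37 at 1.64 against 77.4, the myelin lipid carrier Pmp2 at 1.88 against 70.1 and the protease inhibitor Serpine2 at 12.9 against 437. Bpifa2, Atp1b2, the monocarboxylate carrier Slc16a7, Qpct, Il1b and Tspan7 completed the 12, with 1.45 to 4.56 in KO skin against 53.6 to 148 in WT skin. Il1b is also a gene of myeloid cells, whose markers were lower in KO skin too. C4b stood at 30.3 in KO ocular and 5.18 in WT ocular, Serpine2 at 45.1 and 11.5, and Atp1b2 at 11.3 and 8.44. The low levels of these genes were thus not particular to KO skin.

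Pigment genes were mostly within 2-fold, as were all genes, of which 13.4% were higher and 9.35% lower. None of the 11 rule genes was 2-fold higher in KO skin and 2 were lower, Slc45a2 at 1770 against 4397 and Tyr at 990 against 2113, with a list median of -0.44. Mlana, at 1569 against 3008, joined them after scaling. Sox10 leaned the other way at 957 against 506. Of the 28 further pigment genes, Hps4, Tpcn2 and Lyst were higher, none of them after scaling, and Mreg (129 against 280) and the cystine carrier Slc7a11 (3.74 against 29.9) were lower. Among 17 lineage regulators, Bcl2 (335 against 70.4), Pax3 (696 against 281) and Snai2 (15.3 against 6.93, not after scaling) were higher, and Kit (364 against 770) and Erbb3 (14.1 against 57.6) were lower. Of 17 genes at the minimum known as drivers of eye melanoma and of its Gq pathway, the cell cycle inhibitor locus Cdkn2a (187 against 67.1) and Prkcd (163 against 76.9, not after scaling) were higher. Plcb4 (1.78 against 12.9) and Rasgrp3 (86.6 against 225), both on that pathway, were lower.

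Partners of Bap1 leaned upward. The counts in this paragraph stand beside 13.4% of all 9673 genes higher and 9.35% lower, or 939 and 1173 genes after scaling. Of 12 genes of its complexes, 5 were higher and 0 lower, also after scaling, with a median of 0.52. They were the sugar transferase Ogt (400 in KO skin against 139 in WT skin), the DNA-binding factor Yy1 (251 against 105), Foxk1 (163 against 69.4), the ubiquitin ligase Ube2o, which acts on Bap1 (82.8 against 34.7), and Mbd6 (50.6 against 11.5). The scaffold Hcfc1 (77.6 against 70.0) and Asxl1 (190 against 136), the cofactor of the enzyme, were within 2-fold. Of 18 Polycomb genes, 5 were higher, among them Phc3, Cbx7, Cbx8 and Pcgf6 (Cbx7 not after scaling), and 0 lower, with a median of 0.75. Ezh2, the catalytic subunit for histone H3 methylation, was at 66.2 against 78.4. Both lists moved the same way as the nuclear-retained list. Of genes that mark the high-risk class of eye melanoma in patients, 6 of 10 reached the minimum. None of them was higher and 3 were lower, Spp1, Fxyd5 and the myeloid adaptor Tyrobp, and the melanocytic cells held the adhesion gene Cdh1 at 10.8 against 16.1. Of 8 genes known to be lower in that class, 6 reached the minimum. Among these, 0 were higher and Satb1 was lower, joined by Id2 after scaling, with a median of -0.56.

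Of cell cycle genes, 5 of the S-phase list and 1 of the G2 and M list were lower, beside 9.35% of all genes. Of 22 S-phase genes, Ung alone was higher (158 against 75.1, not after scaling), and Mcm3, Mcm5, Dtl, Rrm2 and Hells were lower, with a median of -0.60. Scaling added Mcm2, Mcm4 and Clspn to the lower genes. Of 22 genes of G2 and M phase, Mki67 alone was lower (65.2 against 150), joined by Ccna2 after scaling. After thinning, 13.1% of KO skin cells (12.4 to 13.8) held 2 or more UMIs of the G2 and M list, against 21.9% in WT skin, with 33.2% in KO ocular, 35.3% in WT ocular, 2.56% of the 39 host cells and 11.3% of the 915 mixed barcodes. At the cut, 409 KO skin cells held exactly 2 such UMIs and 1642 held 1, and the unthinned share was 29.9%. Of 14 cell cycle inhibitors and p53 targets, Cdkn2a and the death gene Bbc3 (58.5 against 7.89) were higher and Ccng1 (17.2 against 37.9) was lower. Ccnd1 stood at 138 against 67.8, which fell short of 2-fold after scaling.

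Genes of secretion, matrix and the invasive melanoma state were lower in part, beside 9.35% of all genes. Of 20 secreted factors, 10 were lower and 2 higher, with a median of -0.997. Spp1 stood at 628 against 5691, Serpinf1 at 26.2 against 167, Cxcl2 at 9.89 against 177 and Ccl2 at 8.15 against 45.2, and Pdgfa (121 against 57.0) and Cxcl12 (15.98 against 7.74) were higher, neither of them after scaling. Of 13 invasive-state genes, 7 were lower, with a median of -1.09, and Ccn1 alone was higher (586 against 265, not after scaling). Fn1 stood at 87.1 against 827, Thbs1 at 72.6 against 503, Ccn2 at 23.8 against 143 and Tnc at 8.51 against 103. Axl, the receptor that gives this state its usual name, leaned the other way at 596 against 334. Of 18 genes of matrix and its turnover, Sparcl1 (530 against 3213), Sparc (575 against 1730), Col18a1 (35.7 against 138), Lamb1, Fn1 and Spp1 were lower and Col9a3 (150 against 24.0) was higher. Of 12 genes of Schwann cells and the neural crest at the minimum, the adhesion gene Cdh19 (7.96 against 183) and the intermediate filament gene Nes (7.93 against 29.1) were lower and Sox6 (90.4 against 42.1, not after scaling) was higher, and S100b was among the genes lower after scaling. Macrophages and fibroblasts make several of the secreted and matrix proteins, and the 39 host cells held Spp1 at 7306 and Fn1 at 1912 CPM. A restriction to cells with at most 2 of 2000 UMIs of other-lineage genes was chosen after seeing the data. It left 7296 of 8253 KO skin and 3667 of 5279 WT skin cells, in which 1394 genes were higher and 810 lower over the whole transcriptome. Those counts do not show how the secreted and matrix genes named here stood in these cells. Lower sums were not particular to KO skin. The secreted factors summed to 1414 CPM in KO skin, 7568 in WT skin, 1937 in KO ocular and 4219 in WT ocular. In the same order the matrix list summed to 3679, 13127, 3159 and 1806. The invasive-state list summed to 2840, 4572, 2593 and 722.

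Genes of antigen presentation by MHC class I were in part lower in KO skin, beside 9.35% of all genes lower and 13.4% higher. B2m, the light chain of MHC class I, stood at 244 CPM in KO skin against 617 in WT skin, H2-D1 at 19.98 against 40.4 and the peptide transporters Tap1 and Tap2 at 5.72 against 19.3 and at 5.28 against 19.3. Of 9 class I genes, 5 were lower and 0 higher, with a median of -1.01, and Nlrc5, which switches the class I genes on, was among the 5 at 7.43 against 20.04. Of 6 type I interferon genes at the minimum, Isg15, Rsad2 and Ifit3 were lower. The 39 host cells held B2m at 355 and H2-D1 at 332. None of the 5 class II genes at the minimum differed 2-fold, and most of them are myeloid genes. Cd47, which tells macrophages not to engulf a cell, was at 83.2 against 212, and Nectin2, a ligand of lymphocyte receptors, at 106 against 40.4.

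Stress and metabolic lists differed from each other in how many genes were called, beside 13.4% of all genes higher and 9.35% lower. Among 19 genes of the unfolded protein response, the death-linked factor Ddit3 was higher (355 against 77.5) and the chaperone Pdia4 lower (149 against 552). The list median was -0.50, and 6 further chaperone genes including Hspa5 (184 against 351) became lower after scaling. Of 21 genes of low oxygen and glycolysis, Ankrd37 was higher (not after scaling) and Aldoa (565 against 1264) and Egln3 (6.56 against 45.1) were lower, with a median of 0.23. None of 17 immediate-early genes differed 2-fold. Of 20 nuclear genes of oxidative phosphorylation, Cycs alone was lower, whereas all 13 mitochondrially encoded genes were. Of 20 lysosomal genes, 6 were lower, among them the protease Ctsd (754 against 2084), Ctsl, Lamp1 and Atp6v0d2, and Ctsk was higher (181 against 68.9), with Lamp2 and Ctsb lower too after scaling. Among 17 genes of iron and redox balance, 6 were lower and 0 higher, with the metal-binding Mt2 at 401 against 1413 and the heme-degrading Hmox1 at 202 against 501, and scaling added Tfrc and Steap1. The 39 host cells held Hmox1 at 1510.

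Within KO skin few genes reached a variance over cells of 1.5 times the mean, a limit set for this description. After thinning to 2000 UMIs, 284 of 7402 genes with a mean of at least 0.05 UMIs per cell (3.84%) had a variance of at least 1.5 times the mean, and the median gene had 1.06. The number depends on depth, and 919 genes reached the limit after thinning to 5000 UMIs, which 3847 cells allow. The highest ranks by excess variation were held by genes of other lineages in few cells. The 13 highest cells held 50% of all Col1a1 UMIs, and the same share took 19 cells for the haemoglobin gene Hbb-bs, 81 for the macrophage lysozyme Lyz2 and 94 for the neutrophil gene S100a9, against 2905 cells for Dct and 1666 for Tyr. In the 7296 cells with at most 2 of 2000 UMIs of other-lineage genes, the variance over mean of Col1a1 was 1.01 against 89.3 in all members, that of Lyz2 was 0.973 against 15.96 and that of Hbb-bs was 1.02 against 70.0, but the restriction caps the UMIs of the lists that hold these 3 genes. Genes outside those lists differed too, with Hmox1 at 1.40 against 6.44, Col4a1 at 1.33 against 8.02, Spp1 at 1.96 against 15.4, Thbs1 at 4.51 against 12.5 and Igfbp3 at 4.34 against 27.2. Values closer to those of all members were seen for others. Egr1, an immediate-early factor, had 3.39 against 3.40 in all members, Mki67, a proliferation marker, 2.19 against 2.17, the muscle gene Igfn1 5.07 against 4.95, the metal-binding Mt1 4.66 against 4.55, Tyr 1.85 against 1.87 and the heat shock gene Hspa1b 11.7 against 14.7.

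**Figure D4:**
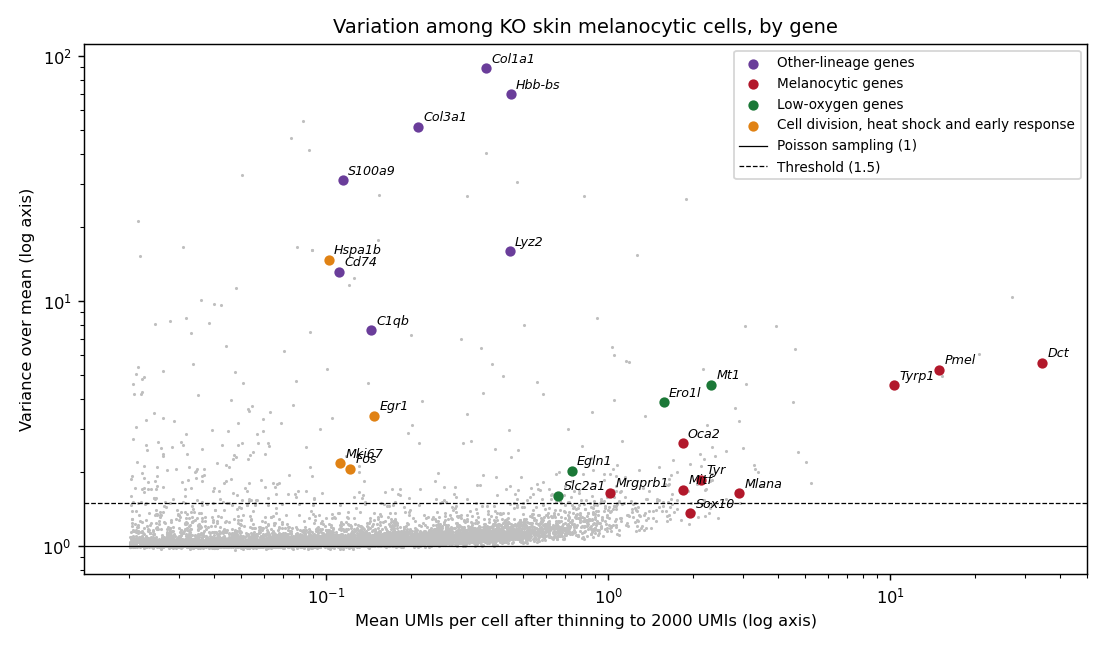
Variance over mean (y axis, log) against mean UMIs per cell (x axis, log) for each gene in the 8253 KO skin melanocytic cells after thinning to 2000 UMIs. Genes of other lineages such as Col1a1 (89.3) and Lyz2 (15.96) stand highest at low means, while Sox10 and Mitf lie near the 1.5 threshold.

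Correlations between rule genes were weak, and since the rule selected on these genes they are a description. Of the 55 pairs of the 11 genes, 51 had a positive Spearman correlation over the 8253 cells, with a median of 0.11, the highest for Pmel and Dct (0.53) and the lowest for Tyr and Tyrp1 (-0.10). All cells share 1 library and the depth of each was fixed by thinning. Principal components of 742 variable genes held small parts of the variance. The first (7.13%) set Adgb, Rsrp1, Appl2, Slc24a4 and Arglu1 against Fth1, Vim, Mt1 and Anxa5, and its score had a correlation of 0.80 with the nuclear-retained list, -0.70 with the oxidative phosphorylation list and -0.56 with log UMIs. The second (2.93%) set Ptgds, Tyrp1, Pmel, Slc24a5 and Dct against Ero1l, Ccn1, Egln1, Higd1a, Hk2 and Hilpda. Its score had a correlation of -0.66 with the rule genes, 0.62 with the low-oxygen list and -0.06 with log UMIs. The third (2.04%) ran with the macrophage list (-0.52). Genes of these lists also entered the components, such as Rsrp1 and Arglu1 in the first, Tyrp1 and Dct in the second and Lyz2 in the third. These correlations are therefore in part built in.

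Cells with more UMIs of the low-oxygen list held fewer of several pigment genes. The cells were ordered by their UMIs of the 21 measured genes of the list per 2000, giving 2334 cells with 0 to 9, 1893 with 10 to 13, 2077 with 14 to 20, 1588 with 21 to 35 and 361 with 36 or more. These are ranges of 1 measure, not types of cell, and levels in them weigh each cell alike. In that order Oca2 stood at 1142, 1034, 924, 581.9 and 271 CPM and Gpr143, a melanosome receptor, at 692, 602, 501, 344 and 226. Slc24a5 stood at 3130, 2849, 2510, 2024 and 1422, Tyr at 1157, 1147, 1108, 896 and 616 and Dct at 18119, 17972, 17276, 15836 and 13479. The potassium channel Kcnj13, at 824 in the lowest range and 276 in the highest, and Trpm1, at 1897 and 1055, followed the same order. Not every melanocyte gene did so: Sox10 stood at 1003, 959, 971, 957 and 997, Mitf at 920, 938, 962, 845 and 928, and Mlana at 1471, 1471, 1423, 1427 and 1612. Sox10 and Mitf thus showed no such order, while Oca2, Gpr143 and Slc24a5 were lower in each range than in the one before.

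Many genes outside the list were higher along it. Ero1l, an oxidase of the endoplasmic reticulum that the list held only under its other symbol, stood at 247, 443, 782, 1616 and 2416 CPM. Between the highest and the lowest range, 561 of 5766 genes outside the list with at least 50 CPM were 2-fold higher (9.73%) and 976 were 2-fold lower (16.9%). The cell cycle inhibitor Cdkn1a stood at 371 with 36 or more such UMIs against 23.8 with 0 to 9, Mt1 at 4741 against 564, Mt2 at 1337 against 106, Cited1 at 2812 against 744, the peptide hormone Apln at 233 against 23.1, the vessel growth factor Pgf at 913 against 152, the lipid droplet gene Hilpda at 565 against 72.4 and Bhlhe40 at 1525 against 317. Ptgs2, which makes prostaglandins, was the furthest apart by ratio over all members. In cells with at most 2 of 2000 UMIs of other-lineage genes, Cdkn1a was the furthest higher. Ptgs2 was not among the 12 furthest higher there, where genes also needed at least 50 CPM. Over all members, the furthest lower included the retinal cyclase gene Gucy2f (77.6 against 740) and Tpcn2 (6.93 against 58.7). Mki67 stood at 20.8 against 64.5 in the same cells. Depth and RNA makeup moved along the order too. Median depth was 4144 UMIs in the lowest range and 8443 in the highest, and the nuclear-retained list summed to 9517 and 3904 CPM. Among cells with 3000 to 8000 UMIs and 11 to 22 UMIs of the nuclear-retained list, Oca2 still stood at 1185, 1015, 1081, 739 and 309 and Cdkn1a at 21.7, 42.1, 65.5, 208 and 273, with 785, 689, 664, 415 and 55 cells in the ranges. Gpr143 stood at 680, 618, 522, 336 and 373 there, Sox10 at 924, 927, 938, 958 and 1036, and Mitf at 973, 954, 977, 799 and 736, so Mitf was lower in the 2 highest ranges of these cells. The macrophage list summed to 395 in the highest range and 731 in the lowest. In cells with few other-lineage UMIs, Oca2 stood at 283 against 1190 and Cdkn1a at 358 against 19.4. Mrgprb1 did not follow the order, at 503, 490, 532, 524 and 420.

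**Figure D5:**
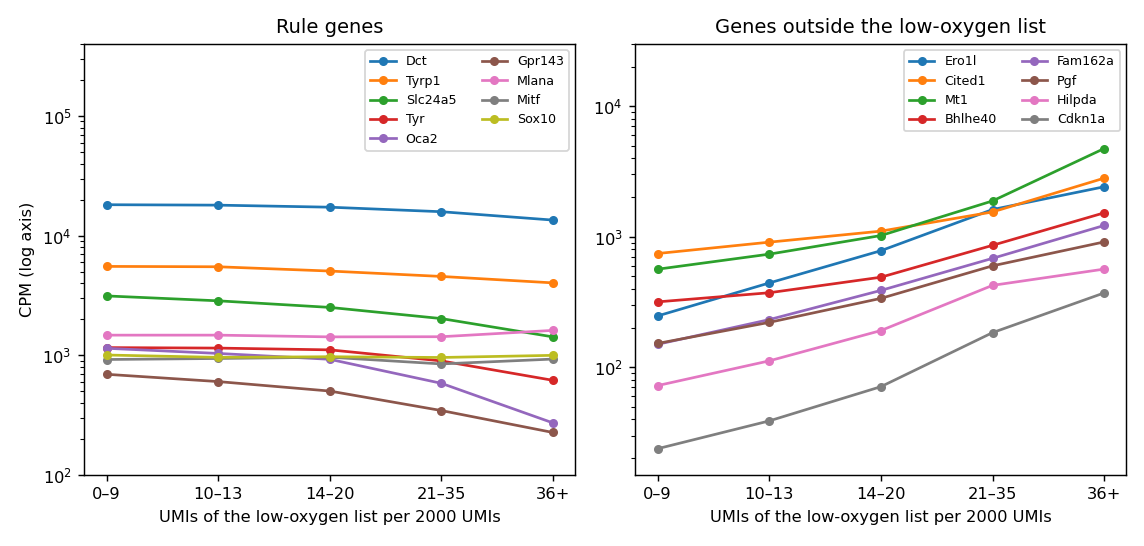
Level in CPM (y axis, log) of 9 rule genes (left) and 8 genes outside the low-oxygen list (right) by range of the list's UMIs per 2000 UMIs of the cell (x axis), in KO skin melanocytic cells. Oca2 and Gpr143 are lower toward the right, Sox10 stays between 957 and 1003, and all 8 genes of the right panel are higher.

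The nuclear-retained measure split the cells in another way. In 4 ranges of that list, from 0 to 10 up to 23 or more UMIs per 2000, median depth was 8686, 5131, 4082 and 3504 UMIs. Vim stood at 2060, 1003, 680 and 506 CPM and Fth1, the ferritin heavy chain, at 3700, 1815, 1247 and 942, while Adgb stood at 920, 2170, 2883 and 3341 and Oca2 at 509, 875, 1114 and 1206. Between the ends, 722 of 5849 genes outside the list were 2-fold higher (12.3%) and 673 lower (11.5%). Rsrp1 and Son, members of the list, were also among the genes above WT skin, at 1288 against 170 and at 947 against 424.

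Dividing cells formed a small range. The 463 cells with 5 or more UMIs of the G2 and M list had 334 of 5800 other genes 2-fold higher (5.76%) and 82 lower (1.41%) than the 5532 cells with none, and the furthest higher were mitotic genes such as Troap, Kif2c, Kif18b, Knl1 and Ndc80. Lower genes included Kcnt1, at 27.0 against 86.4, and the channel gene Pkd2l1. In the 256 cells with 10 or more such UMIs, Oca2 stood at 516 and Kcnj13 at 314, against 944 and 674 in cells with none, while Mrgprb1 stood at 424 against 509.

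Few genes ran with Mrgprb1. The 441 cells with 4 or more Mrgprb1 UMIs per 2000 were set beside the 3806 with none. Of 5527 genes outside the Mrgpr family list, 12 were 2-fold higher (0.217%) and 49 lower (0.887%). Mrgprx2, a member of that list and so not counted, stood at 638 against 142. Oca2 stood at 1598 against 693, Igfn1 at 399 against 154, and Procr, the endothelial protein C receptor, at 266 against 109. The furthest lower were Col1a1, Col3a1 and other fibroblast and myeloid genes, and the macrophage list summed to 244 against 914. In cells with few other-lineage UMIs 12 of 5541 genes outside the list were 2-fold higher and 14 lower, and Oca2 stood at 1602 against 730. Dct stood at 19743 in the cells with 4 or more against 15878 in those with none, at median depths of 4286 and 4692 UMIs.

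The cultured lines give values to set beside the receptor pair. In bulk RNA-seq, whose deposited values are on a transformed log2 scale with a floor of 6.61, Mrgprb1 was highest in knockout clone 2, with 13.2 and 13.1. Clone 1 had 10.7 and 10.5, clone 3 had 10.5 and 10.2, and clone 4 had 7.23 and 7.07, against 6.99 and 6.97 for the unedited line. Of the 6 genes that marked clone 2 most among the 5 lines (Sez6l, Ephb1, Emp2, Mrgprb1, Mrgprx2 and Aoc1), 5 reached 10 CPM in KO skin, 5 in KO ocular and 5 in WT ocular, and 0 in WT skin. Of the 6 that marked each of the others, 3, 2 and 2 did so in KO skin for clones 1, 3 and 4, against 4, 2 and 2 in WT skin. Of the 6 that marked the parental line (Sparcl1, Atp1b2, Cd36, Bap1, Serpine2 and Igfbp5), 5 did so in KO skin and 6 in WT skin, with median levels of 36.6 against 110. Of genes at least 2 log2 units above the parental line in a clone, 10 of 11 for clone 2, 1 of 1 for clone 1, 3 of 11 for clone 3 and 4 of 8 for clone 4 were 2-fold higher in KO skin than in WT skin, beside 13.4% of all genes. Of genes at least 2 log2 units below the parental line, 27 of 34 for clone 2, 1 of 3 for clone 1, 39 of 55 for clone 3 and 49 of 75 for clone 4 were 2-fold lower in KO skin, beside 9.35% of all genes. Both sets of counts were taken over 9278 genes. Emp2, at 1.37 CPM in KO skin and 3.29 in WT skin, was not among those counted for clone 2. A gene could enter through its level in 1 skin matrix alone, so these shares are a description. The 4 clones share the parental libraries, and the sources used here do not say which line gave rise to which tumour.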

How the data were processed

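Tumour tissue was dissociated and profiled by droplet single-cell RNA-seq, and cultured lines by bulk RNA-seq. The deposited matrices hold UMI counts per gene and barcode that were not normalized, made with Cell Ranger 8.0.0 (7.0.0 for WT ocular), per the file headers. Builds GRCm38 and mm10 are named in the submitters' processing notes, which do not say how barcodes were filtered. The labels name both a droplet chemistry and a fixed-tissue workflow. The bulk table was deposited on a variance-stabilized log2 scale, from which no counts were recovered.

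The members and the gene lists were chosen with earlier results of these data known. UMIs were summed over the cells of each matrix and scaled to CPM, UMIs per 1e+06. Total depth was 91229449 UMIs in KO skin, 88752748 in WT skin, 115566351 in KO ocular and 108623160 in WT ocular. Each cell was thinned to 2000 UMIs without replacement for shares of cells and variance. Calls used a 2-fold difference with at least 10 CPM in the higher group in place of a test, since each group had 1 library. Intervals are exact 95% binomial or Poisson ones. Upstream sequences and positions are from RefSeq (GRCm38.p6), and pairs were aligned with match 1, mismatch -1 and gap -1. Computation used Python 3.11.15, numpy 2.4.6, scipy 1.17.1 and pandas 2.3.3, and was tested on simulated data. Instead of a doublet caller, the limit on other-lineage genes and stricter limits were used.

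The genes named were the rule genes and markers, the 12 with the highest and the 12 with the lowest KO skin over WT skin ratio at 50 CPM or more, the 25 highest by level and by variation, up to 6 of each list, the ends of components, and 6 marker genes of each line. Genes at 2-fold within a list and genes named in the ranges of cells, Cdh1 and Cd3e among them, were also named after their values were seen. Alternatives changed the limits on cells, the scaling, the minimum level and the thinning depth. A few genes that these rules name are not reported here.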

Additional observations from a re-analysis of the deposited data

Results flagged for a closer look

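Genes of the receptor pair and of clone 2 appeared in a matrix outside the comparison of KO skin with WT skin. The melanocytic cells of the matrix labelled WT ocular held Mrgprb1 at 256, Mrgprx2 at 46, Sez6l at 78.3 and Ephb1 at 27.3 CPM. The cells labelled KO skin held them at 474, 233, 55.9 and 45.6 CPM, against 0.749 (Mrgprb1), 0.375 (Mrgprx2) and 1.06 (Sez6l) in the cells labelled WT skin. The matrix labelled WT ocular came from another workflow than the other 3, and the part of that in these values was not tested.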

How the results depend on the processing

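No paired analysis was possible because the matrices carry no replicate. Of 62 values recomputed under alternatives, 41 kept their direction and stayed within 1.5 times, within their interval or on their side of the call, and 21 did not. The number labelled as reversed was 0, but most of the values are counts, levels or shares, which cannot change sign. That 0 is therefore no measure of stability. The number of cells was 3847 with at least 5000 UMIs and 4654 with 0 of the 5 other-lineage genes. Mrgprb1, at 474 CPM, was 490 with 0 other-lineage genes, 482 with at least 9 of the 11 genes, 460 with at least 5000 UMIs, 498 without the top 5% by UMIs and 494 with the rule genes left out of the totals. Of alternatives added after seeing the data, it was 481 with at most 2 of 2000 UMIs of other lineages and 483 without cells whose first 16 barcode bases another matrix held. The Bap1 log2 ratio was 0.0792 (-0.017 to 0.175) with at least 5000 UMIs, which takes in 0, and 0.34 without the top 5%. The share with G2 and M UMIs was 33.0% at 1 or more UMIs, 8.12% at 3 or more, 28.8% thinned to 5000 UMIs, 29.9% unthinned and 12.2% with 0 other-lineage genes. It is a share at 1 depth and 1 limit. Genes higher and lower in KO skin numbered 736 and 396 at 50 CPM, and 4785 and 2867 with no minimum. Scaled by the median ratio they numbered 939 and 1173, so more genes were lower than higher, against 1298 and 904 without scaling. With mitochondrial genes left out of the totals they numbered 1212 and 957. Genes with a variance of at least 1.5 times the mean numbered 284 at 2000 UMIs and 919 at 5000 UMIs, a depth that 3847 cells reach. With 1 library of each kind, no alternative bears on variation between tumours.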

Other observations

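Ratios between the cells labelled KO skin and WT skin differed in level between chromosomes. Over 9591 of the 9673 genes with a chromosome in RefSeq (GRCm38.p6), the median log2 ratio was 0.18. Genes of chromosome 17 lay 0.31 below it (median -0.14, 465 genes) and those of chromosomes 12 (-0.06, 335 genes), 8 (-0.05, 538 genes) and 18 (-0.05, 254 genes) lay next lowest. Genes of chromosomes 3 (0.41, 453 genes), X (0.41, 276 genes), 7 (0.40, 701 genes) and 19 (0.40, 340 genes) had the highest medians. Genes of 1 chromosome are not replicates, and no test was made.

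The 1305 cells of KO skin with the melanocyte genes and exactly 2 genes of other lineages were outside the melanocytic set. The melanocytic cells held Lyz2 at 178 CPM and Dct at 17391 at a median of 4720 UMIs, and those 1305 cells held Lyz2 at 1182 and Dct at 16058 at a median of 8171. The 727 melanocytic cells just above the limit of 2000 UMIs held Dct at 16518 and Mrgprb1 at 492, and the 467 barcodes just under it that met the other limits held them at 15938 and 363.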
